A study of Mus musculus with 110 samples.

Results

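The genes described here encode 7 enzymes and 1 transporter that handle the sulfur of cysteine. Cdo1, Csad, Ado and Slc6a6 belong to the oxidation of cysteine and to taurine, and Mpst, Ethe1, Suox and Tst belong to sulfide, sulfite and sulfur carriers. They were chosen by name for these roles, by a rule that uses no measured value but with earlier results of these data known, and are 8 of the 56884 genes in the count tables. All 8 passed the filter on low counts in each tissue. Polyadenylated RNA was sequenced from liver, interscapular brown adipose tissue (iBAT), inguinal white adipose tissue (iWAT) and epididymal white adipose tissue (eWAT) of 28 adult, male, wild-type C57BL/6N mice, kept alone in their cages. Ctrl_RT mice ate a control diet with 0.86% methionine and stayed at 22 °C, and MetR_RT mice ate a methionine-restricted diet with 0.12% methionine at the same temperature. Ctrl_CE and MetR_CE mice ate these diets and were then moved to 4 °C for 24 h. Both diets held 0% cysteine and were given for 7 days before the cold, and each group had 7 mice. Cold exposure (CE) followed the diet period, so a further day on the diet and the cold cannot be told apart.

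Cysteine that is not used for protein or glutathione is broken down along a pair of routes. In the oxidative route, cysteine dioxygenase (Cdo1) makes cysteine sulfinate, cysteine sulfinate decarboxylase (Csad) turns it into hypotaurine, and hypotaurine becomes taurine, which is joined to bile acids in the liver and serves as an osmolyte elsewhere. Ado, a thiol dioxygenase, makes hypotaurine from cysteamine and also oxidises proteins that start with cysteine, and Slc6a6 carries taurine into cells. In the other route, mercaptopyruvate sulfurtransferase (Mpst) releases sulfur that can appear as hydrogen sulfide, and mitochondria oxidise sulfide through sulfide quinone oxidoreductase, the persulfide dioxygenase Ethe1, the thiosulfate sulfurtransferase Tst and, for the last step from sulfite to sulfate, sulfite oxidase (Suox).

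In mouse build GRCm38, Csad spans chr15:102176999-102204724 on the minus strand, Suox chr10:128669894-128674073 (minus), Ado chr10:67544511-67548955 (minus), Slc6a6 chr6:91684053-91759066 (plus), Ethe1 chr7:24587543-24608925 (plus), Mpst chr15:78406416-78414013 (plus) and Tst chr15:78399556-78405907 (minus). Tst and Mpst are neighbours that point away from each other with 508 bases between them. Csad overlaps Zfp740, Ethe1 overlaps Zfp575 and Slc6a6 overlaps 4930517G19Rik, Gm45828 and Gm44981; whether counting used strand is not given in the sources used here, so reads in the shared stretches could belong to either gene. RefSeq promoter windows of 250 bases before a start site (build GRCm38.p6) were at hand for 5 of the 8 genes. The parts of these windows outside annotated exons are shown for Csad and Suox, the genes with the largest called rise and the largest called fall below, 5′ to 3′ on the strand of the gene. The RefSeq start of Csad used here lies upstream of the span given above. Capitals mark a GC box, found here as CCGCCC, the opposite strand of GGGCGG.
Csad chr15:102205087-102205228: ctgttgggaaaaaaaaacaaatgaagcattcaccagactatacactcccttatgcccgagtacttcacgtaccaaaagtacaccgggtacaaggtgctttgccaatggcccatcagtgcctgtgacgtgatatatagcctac
Suox chr10:128674074-128674168: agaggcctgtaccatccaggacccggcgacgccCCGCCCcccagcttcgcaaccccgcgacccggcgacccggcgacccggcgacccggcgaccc

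Windows were searched on both strands for TGATGNAAN (the letters of a CARE, bound by ATF4), TGACNNNGC (an ARE, bound by NRF2), AGGTCA (a binding site of nuclear receptors) and GGGCGG. The first was in 3.44% of all 32851 windows, the second in 10.2%, the third in 14% and the GC box in 32.7%. No window of the 5 genes held TGATGNAAN or AGGTCA. GC boxes lay in the Suox window (4 of them, of which 3 share bases with each other and lie outside the stretch printed), in both Ethe1 windows and in the window of a further Csad start, and an ARE match, TGACATGGC, lay in 1 Mpst window. The Ado window and the Csad stretch printed above held none of the letters searched for.

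Library depth, the sum of counts over genes, lay between 6987895 and 33444374 for liver, 12672686 and 31232349 for iBAT, 16607493 and 33141066 for iWAT, and 22021114 and 33372110 for eWAT. After the study left out 5 libraries (1 iBAT Ctrl_CE, 3 eWAT Ctrl_RT and 1 eWAT MetR_RT), 105 of 110 remained, with 6 or 7 per group except 4 in eWAT Ctrl_RT. For 3 iBAT libraries the treatment tag named another group than the title, and the title was used. The lowest count behind a value of the 8 genes was 72 reads (Ethe1 in eWAT), and counting error therefore weighs most on Ethe1 in white fat. Hepatocyte markers summed to between 42001 and 81834 CPM (counts scaled to the library's total) in liver, and adipocyte markers to between 8471 and 29904 CPM in the fat depots. The brown adipocyte markers (Ucp1, Cidea, Ppargc1a, Dio2 and Cox8b) summed to 8456 to 11745 CPM in the iBAT of room-temperature mice and to 14397 to 17592 CPM after cold. In iWAT their median sum was 307 CPM for Ctrl_RT, 1749 for MetR_RT, 3257 for Ctrl_CE and 4759 for MetR_CE, and the macrophage markers went the other way (417, 128, 179 and 88.8 CPM). In such bulk samples, fewer cells of a type and less RNA per cell cannot be told apart, and the part of these shifts in the results below was not tested.

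Levels of the 8 genes differed by tissue in Ctrl_RT mice. Per kilobase of exon, on a scale shared by the 4 tissues, Cdo1 was the most abundant of the 8 in every tissue, with 1174 ± 234.96 CPM per kb in liver (mean ± SD, n = 7), 599 ± 106 in iBAT (n = 6), 583 ± 115 in iWAT (n = 7) and 818 ± 197 in eWAT (n = 4). Its liver level was above iBAT by 0.93 ± 0.13 (SE, edgeR adjusted p = 1.75e-06) on the log2 scale and above iWAT by 1.02 ± 0.12 (SE, edgeR adjusted p = 2.06e-07), while iBAT and iWAT did not differ beyond their spread and eWAT was not told apart from liver or iBAT by 1.5-fold or more. Csad, in contrast, was lowest in liver: it measured 39.1 ± 15.4 CPM per kb there against 73.3 ± 8.40 in iBAT, 65.5 ± 11.2 in iWAT and 75.5 ± 12.1 in eWAT. The difference of liver from eWAT was -1.02 ± 0.17 (SE, edgeR adjusted p = 2.83e-05), and the 3 fat depots were not told apart for Csad. Slc6a6 was highest in iBAT (33.5 ± 4.04 CPM per kb), then iWAT (20.3 ± 3.68), liver (15.2 ± 3.08) and eWAT (12.1 ± 5.08), where neither iWAT and liver nor liver and eWAT differed by a called amount. Ado was low everywhere, between 4.83 CPM per kb in eWAT and 7.12 in iBAT.

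The sulfide genes were higher in liver than in fat. Mpst reached 82.2 ± 6.54 CPM per kb in liver and 15.6 to 19.9 in the fat depots, a gap from iBAT of 2.39 ± 0.07 (SE, edgeR adjusted p = 1.02e-16) on the log2 scale. For Tst the values were 91.3 ± 7.93 CPM per kb in liver, 18.7 ± 4.91 in iWAT, 12.1 ± 2.49 in iBAT and 10.1 ± 0.938 in eWAT, and iBAT and eWAT did not differ beyond their spread. Ethe1 went down in steps from 47.5 ± 9.03 in liver over 9.33 ± 0.797 in iBAT and 4.21 ± 0.638 in iWAT to 2.21 ± 0.447 in eWAT, and each step was called. Suox had the smallest gap between liver and iBAT of these 4, 0.75 ± 0.10 (SE, edgeR adjusted p = 1.77e-06), at 57.6 ± 9.59 CPM per kb in liver and 34.5 ± 2.76 in iBAT, and its iBAT level was above that of iWAT by 1.58 ± 0.10 (SE, edgeR adjusted p = 7.69e-11). Of the 48 differences of level between tissues (8 genes, 6 pairs), 30 were called; over all genes, the share called was 48.8% for liver against iBAT, 51.2% for liver against iWAT, 49.5% for liver against eWAT, 37.1% for iBAT against iWAT, 38.2% for iBAT against eWAT and 15.4% for iWAT against eWAT. Liver and eWAT came from count tables of their own, and iBAT and iWAT shared a table. Which libraries were prepared together is not given in the labels. Tissue and any difference in preparation therefore cannot be told apart in these levels.

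**Figure D1:**
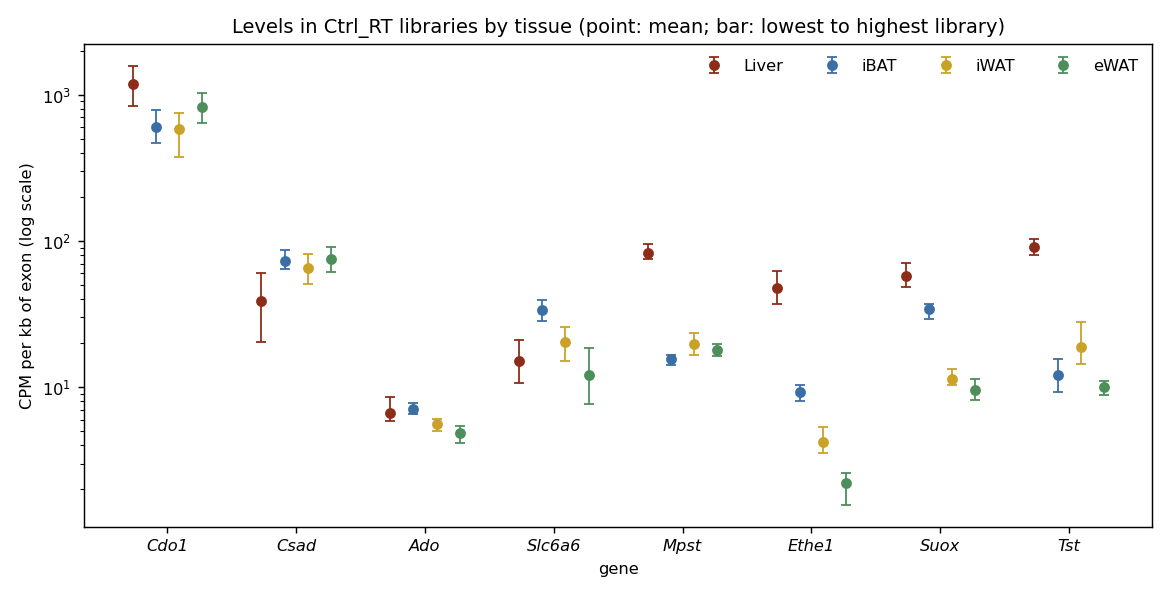
Level of the 8 genes in Ctrl_RT libraries by tissue, in CPM per kilobase of exon on a log axis (points, mean; bars, lowest to highest library; n = 7 liver, 6 iBAT, 7 iWAT and 4 eWAT). Mpst, Ethe1, Suox and Tst are higher in liver than in each fat depot without overlap. Cdo1 is the highest gene in each tissue, and Csad is lowest in liver.

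Within a tissue, 6 comparisons were fitted: Ctrl_CE, MetR_RT and MetR_CE against Ctrl_RT, MetR_CE against MetR_RT and against Ctrl_CE, and the diet by temperature interaction, which asks whether the cold response differs between the diets. The first 3 share the Ctrl_RT libraries. A gene was called, and is said to have risen or fallen, where edgeR's quasi-likelihood test gave a Benjamini-Hochberg adjusted p under 0.05 over all genes of the tissue and the change was at least 1.5-fold. Values below written as a number ± SE are log2 fold changes from this fit, and gene levels within a tissue are CPM. Of 192 tests (8 genes, 6 comparisons, 4 tissues), 22 were called: 9 in iBAT, 6 in iWAT, 5 in liver and 2 in eWAT. Slc6a6 and Tst had 5 each, Csad 4, Suox 3, Mpst and Ethe1 2 each, Cdo1 1 and Ado none (9 of its 24 tests had an unadjusted p under 0.05, and DESeq2 called 0). In the 11 of 24 comparisons where edgeR called none of the 8 genes, 31 of 88 tests had an unadjusted p under 0.05 and DESeq2 called 3.

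In liver, 1 of the 8 genes was called in MetR_RT (6.91% of all genes), 3 in MetR_CE against Ctrl_RT (13.5%) and 1 in MetR_CE against MetR_RT (5.18%). The shares of all genes were 11.9% in Ctrl_CE, 1.06% in the interaction and 5.26% in MetR_CE against Ctrl_CE, where none of the 8 was called. In iBAT, 4 were called in Ctrl_CE (14.7% of all genes), 1 in MetR_RT (2.5%), 3 in MetR_CE against Ctrl_RT (14.7%) and 1 in MetR_CE against MetR_RT (8.53%), and none in the interaction (0.372%) or in MetR_CE against Ctrl_CE (1.64%). By adjusted p alone, with no fold threshold, 8 of 8 passed in iBAT Ctrl_CE and 7 of 8 in iBAT MetR_CE, where 33.2% and 33.4% of all genes did. In iBAT MetR_CE against MetR_RT (25.5%) and iWAT MetR_CE against Ctrl_RT (37%), 6 of 8 passed. In liver MetR_RT (18.8%) and MetR_CE against Ctrl_RT (30.3%), 5 of 8 passed. The remaining comparisons had at most 4 of 8, with shares from 0.148% to 30.8%. All shares include genes with as few as 10 counts in total, while the 8 genes had at least 72 per library. In iWAT, 1 was called in Ctrl_CE (15.9% of all genes), 2 in MetR_CE against Ctrl_RT (22.4%), 2 in MetR_CE against MetR_RT (1.88%) and 1 in the interaction (1.65%), and none in MetR_RT (11.6%) or MetR_CE against Ctrl_CE (2.27%). In eWAT, 1 was called in Ctrl_CE (2.42%) and 1 in MetR_CE against Ctrl_RT (1.3%), and none in MetR_RT (0.115%), the interaction (2.3%), MetR_CE against MetR_RT (0.112%) or MetR_CE against Ctrl_CE (4.35%). The median log2 fold change of the 8 genes against Ctrl_RT in liver was -0.011 for Ctrl_CE (all genes, -0.011), 0.16 for MetR_RT (0.0045) and -0.012 for MetR_CE (-0.044). For iBAT these medians were -0.29 (-0.083), -0.13 (-0.038) and -0.41 (-0.10), for iWAT -0.13 (-0.11), 0.12 (-0.031) and -0.15 (-0.077), and for eWAT -0.10 (-0.014), -0.0016 (-0.021) and -0.19 (-0.031). Over the other 12 comparisons they lay between -0.32 (liver MetR_CE against MetR_RT, all genes -0.035) and 0.11 (iBAT interaction, all genes 0.030).

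**Figure D2:**
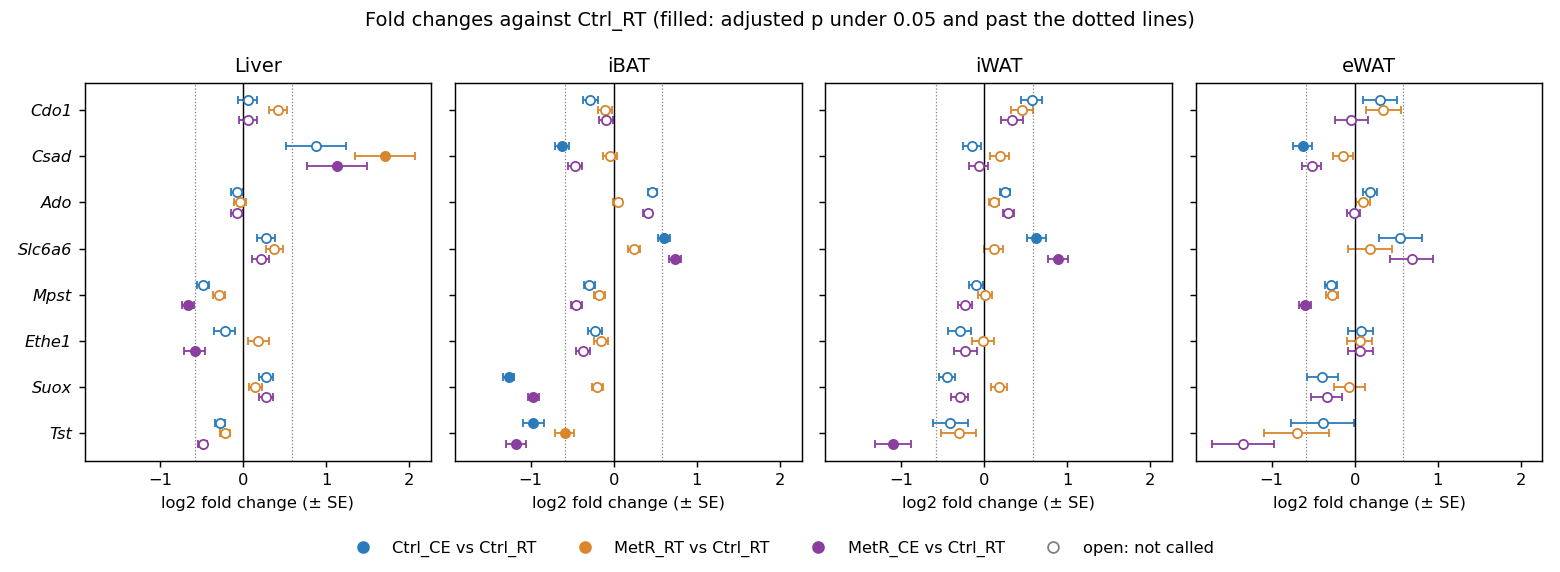
Log2 fold change against Ctrl_RT (± SE) of the 8 genes in each tissue, with Ctrl_CE in blue, MetR_RT in orange and MetR_CE in purple; filled points passed the test and the dotted 1.5-fold lines. Csad in liver lies farthest to the right (1.71 in MetR_RT), and Suox (-1.27 in Ctrl_CE) and Tst (-1.17 in MetR_CE) lie farthest to the left among the filled points.

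Cdo1, a gene of chromosome 18 whose enzyme opens the oxidative route, had its only call in iWAT. Its CPM there ran from 695 to 1368 (median 1125) in Ctrl_RT, 1399 to 1948 (median 1481) in Ctrl_CE, 1094 to 1937 (median 1492) in MetR_RT and 1068 to 1521 (median 1389.9) in MetR_CE. All 7 Ctrl_CE libraries exceeded the highest Ctrl_RT library, and the other groups overlapped with it. The log2 fold change against Ctrl_RT was 0.57 ± 0.13 (SE, edgeR adjusted p = 0.00132) in Ctrl_CE, just under the 1.5-fold line, 0.45 ± 0.13 (SE, edgeR adjusted p = 0.0113) in MetR_RT and 0.34 ± 0.13 (SE, edgeR adjusted p = 0.0480) in MetR_CE. Cold went with a higher level on the control diet and with no called change on the MetR diet (-0.11 ± 0.13, edgeR adjusted p = 0.677, MetR_CE against MetR_RT), and the interaction was called at -0.69 ± 0.19 (SE, edgeR adjusted p = 0.0428). That call was fragile: of 27 fits that each left out 1 library, it held in the 11 without Ctrl_CE replicates 3, 6 and 7, Ctrl_RT replicates 2, 4 and 5, MetR_CE replicates 1 and 6, MetR_RT replicates 1, 5 and 7, and was lost in the other 16, with values from -0.72 to -0.60 and adjusted p-values up to 0.0882.

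In liver, Cdo1 ran from 1064 to 2017 (median 1487) CPM in Ctrl_RT and from 1801 to 2172 (median 2020.2) in MetR_RT. The groups overlapped, and the difference of 0.41 ± 0.11 (SE, edgeR adjusted p = 0.00750) was 1.33-fold and not called. MetR_CE liver measured 1564 ± 162 CPM (mean ± SD, n = 7) beside 1508 ± 304 in Ctrl_RT, and every MetR_CE library lay below every MetR_RT library (-0.36 ± 0.11, edgeR adjusted p = 0.0203). iBAT Cdo1 was lower in Ctrl_CE by less than 1.5-fold (-0.28 ± 0.088, edgeR adjusted p = 0.0127). In eWAT the 4 Ctrl_RT libraries measured 1979.5, 2142, 1376 and 1429 CPM, and Ctrl_CE ran from 1463 to 2795 (median 2116), MetR_RT from 1175 to 3021 (median 2252) and MetR_CE from 1382 to 1969 (median 1698) CPM, with overlap throughout. The eWAT interaction was close in size to that of iWAT, -0.69 ± 0.27 (SE, edgeR adjusted p = 0.177), and did not pass. DESeq2 without shrinkage called it at -0.72 (DESeq2 adjusted p = 0.04996), at the edge of the threshold. The interaction was -0.41 ± 0.16 (SE, edgeR adjusted p = 0.177) in liver and went the other way in iBAT, 0.29 ± 0.12 (SE, edgeR adjusted p = 0.298).

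Csad, the decarboxylase that makes hypotaurine, rose in liver on the MetR diet. Liver Csad ran from 60.6 to 183 (median 119) CPM in Ctrl_RT and from 312 to 447 (median 406) CPM in MetR_RT. No MetR_RT library overlapped with Ctrl_RT, and the change was 1.71 ± 0.36 (SE, edgeR adjusted p = 0.00102), or 3.27-fold, the largest called change of the 8 genes. In MetR_CE it ran from 100.3 to 354 (median 263.3) CPM, overlapping with Ctrl_RT, and remained higher by 1.13 ± 0.36 (SE, edgeR adjusted p = 0.0159). Against MetR_RT, the MetR_CE difference was -0.58 ± 0.36 (SE, edgeR adjusted p = 0.299). The interaction of -1.45 ± 0.50 (SE, edgeR adjusted p = 0.135) did not pass either, and it includes the Ctrl_CE replicate 1 described below. The summed macrophage markers of these livers were 85.2 to 149 CPM in MetR_RT and 163 to 219 CPM in Ctrl_RT, and the endothelial markers were 126.6 to 157 CPM in MetR_RT, above the 84.9 to 126.2 CPM of Ctrl_RT. In MetR_CE the macrophage markers overlapped with Ctrl_RT (153 to 178 CPM) and the endothelial markers lay above it (198 to 231 CPM). The part of either list in the Csad result was not tested.

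Ctrl_CE liver split between 1 library and the rest for Csad. Replicate 1 had 735 CPM, above every other liver library, while the other 6 ran from 74.2 to 192 CPM, close to Ctrl_RT. With it, Ctrl_CE differed from Ctrl_RT by 0.88 ± 0.36 (SE, edgeR adjusted p = 0.0657); without it, the difference was 0.13 (edgeR adjusted p = 0.738). Leaving it out also turned MetR_CE against Ctrl_CE from 0.26 ± 0.35 (edgeR adjusted p = 0.723) into a called rise of 1.002 (edgeR adjusted p = 0.00551). The MetR_RT and MetR_CE rises against Ctrl_RT held in all 28 fits that left out 1 liver library.

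In both iBAT and eWAT, Csad fell with cold on the control diet. iBAT Csad ran from 219 to 292.6 (median 248.5) CPM in Ctrl_RT, 127 to 204 (median 164) in Ctrl_CE, 226.9 to 274.4 (median 235.4) in MetR_RT and 164 to 190.4 (median 181) in MetR_CE. Neither cold group overlapped with Ctrl_RT, and the changes were -0.62 ± 0.086 (SE, edgeR adjusted p = 1e-06) in Ctrl_CE and -0.47 ± 0.082 (SE, edgeR adjusted p = 4.15e-05) in MetR_CE, the second under 1.5-fold. In eWAT the Ctrl_RT libraries held 444, 362, 306 and 379 CPM, Ctrl_CE ran from 195 to 293.2 (median 232.8) CPM and MetR_CE from 226.5 to 291.6 (median 269.5) CPM. All cold libraries were below the 4 Ctrl_RT libraries, with a called fall of -0.63 ± 0.11 (SE, edgeR adjusted p = 0.00281) in Ctrl_CE. The iBAT call was lost without Ctrl_RT replicate 2 (-0.57), Ctrl_CE replicate 2 (-0.57) or Ctrl_CE replicate 4 (-0.57), and the eWAT call without Ctrl_RT replicate 1 (-0.53), Ctrl_CE replicate 3 (-0.57) or Ctrl_CE replicate 7 (-0.57) and with the left-out libraries put back (-0.36). iWAT Csad showed no difference past the test (-0.15 ± 0.11 in Ctrl_CE, 95% interval -0.37 to 0.07).

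Ado, the cysteamine dioxygenase, changed little. Its only differences past adjusted p 0.05 were in iBAT and iWAT, and stayed under 1.5-fold. In iBAT it ran from 25.4 to 30.5 (median 28.1) CPM in Ctrl_RT, 37.1 to 42.2 (median 37.9) in Ctrl_CE and 34 to 38.9 (median 38.6) in MetR_CE. Both cold groups lay above Ctrl_RT without overlap, by 0.47 ± 0.058 (SE, edgeR adjusted p = 2.34e-07) and 0.41 ± 0.057 (SE, edgeR adjusted p = 1.44e-06). The iWAT differences were 0.25 ± 0.06 (SE, edgeR adjusted p = 0.00195) in Ctrl_CE and 0.29 ± 0.062 (SE, edgeR adjusted p = 4.72e-04) in MetR_CE. In liver the Ctrl_CE difference was -0.074 ± 0.072, with a 95% interval of -0.21 to 0.07.

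Slc6a6, the taurine transporter, rose against Ctrl_RT in both cold groups of iBAT and of iWAT. Within the MetR diet it rose with cold in iWAT, while in iBAT MetR_CE was 1.41-fold above MetR_RT (edgeR adjusted p = 2.66e-06), short of the 1.5-fold needed for a call. In iBAT it ran from 213 to 292.5 (median 247.2) CPM in Ctrl_RT, 337 to 441 (median 380.2) in Ctrl_CE, 265.5 to 361 (median 285.5) in MetR_RT and 389 to 460.3 (median 415) in MetR_CE. Every cold library was above every Ctrl_RT library, with changes of 0.60 ± 0.074 (SE, edgeR adjusted p = 1.82e-07) and 0.74 ± 0.072 (SE, edgeR adjusted p = 3.73e-09). Against MetR_RT, MetR_CE was also higher without overlap, by 0.49 ± 0.069 (SE, edgeR adjusted p = 2.66e-06), a 1.41-fold difference under the threshold. The Ctrl_CE call was close to the fold threshold and was lost without Ctrl_RT replicate 1 (0.56), Ctrl_RT replicate 4 (0.58) or Ctrl_CE replicate 7 (0.56). It was also lost when the iBAT groups were taken from the treatment tags instead of the titles.

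iWAT showed the same layout of groups for Slc6a6, with 144 to 240.98 (median 187) CPM in Ctrl_RT, 249.98 to 399 (median 277.2) in Ctrl_CE, 165 to 276.5 (median 201) in MetR_RT and 322 to 418 (median 338) in MetR_CE. The cold groups were above both room-temperature groups, apart from the overlap of Ctrl_CE with the highest MetR_RT library. The called rises were 0.63 ± 0.12 (SE, edgeR adjusted p = 1.81e-04) in Ctrl_CE, 0.89 ± 0.12 (SE, edgeR adjusted p = 2e-06) in MetR_CE and 0.78 ± 0.12 (SE, edgeR adjusted p = 7.44e-04) for MetR_CE against MetR_RT. The Ctrl_CE call was lost without Ctrl_RT replicate 3 (0.57) or Ctrl_CE replicate 4 (0.55). The highest MetR_RT library, replicate 6 at 276.5 CPM, also had the highest sum of skeletal muscle markers in iWAT, 18366 CPM, and its part in the Slc6a6 level was not tested. The MetR diet alone went with a difference of 0.24 ± 0.072 (SE, edgeR adjusted p = 0.0363) in iBAT and 0.11 ± 0.12 (edgeR adjusted p = 0.544) in iWAT.

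Slc6a6 values were widely spread in eWAT. The 4 Ctrl_RT libraries there had 149, 89, 205 and 85.8 CPM, and the MetR_CE libraries ran from 152 to 276.8 (median 215) CPM, overlapping with them. The difference of 0.69 ± 0.26 (SE, edgeR adjusted p = 0.175) in MetR_CE did not pass the test. In liver, Slc6a6 was higher in MetR_RT by 0.37 ± 0.10 (SE, edgeR adjusted p = 0.0108), under 1.5-fold and with overlap of the groups.

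**Figure D3:**
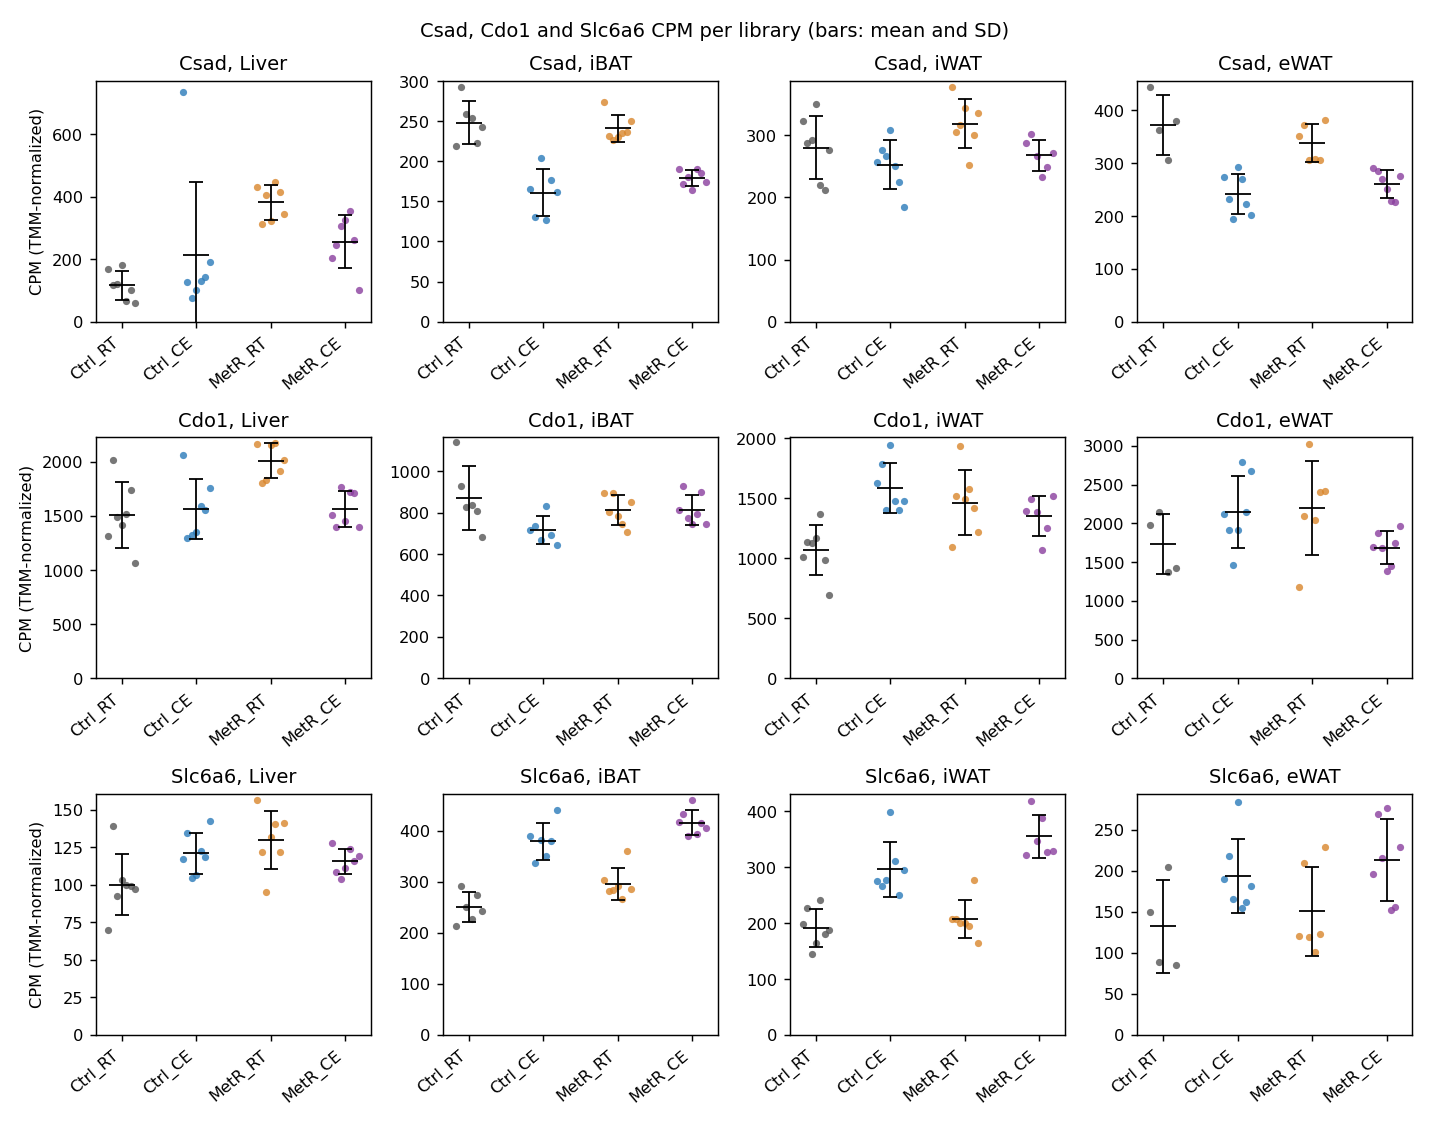
CPM of Csad, Cdo1 and Slc6a6 in every library by tissue and group (points, libraries; lines, mean and SD, drawn down to 0; n = 6 or 7 per group, 4 in eWAT Ctrl_RT). Liver Csad is higher in all 7 MetR_RT libraries than in Ctrl_RT, 1 Ctrl_CE library stands alone at 735 CPM, and Slc6a6 is higher in the cold groups of iBAT and iWAT.

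Suox, which turns sulfite into sulfate, had the largest called fall of the 8 genes, in iBAT. Its CPM there ran from 65.2 to 81.1 (median 78.6) in Ctrl_RT, 29 to 36.1 (median 31.1) in Ctrl_CE, 61 to 74.2 (median 63.7) in MetR_RT and 35.9 to 42.6 (median 37.5) in MetR_CE. The cold and room-temperature libraries formed groups with a wide gap, and no cold library reached the lowest room-temperature value. The log2 fold change was -1.27 ± 0.067 (SE, edgeR adjusted p = 3.62e-14) in Ctrl_CE, to 0.415 of the Ctrl_RT level, and MetR_CE fell by 0.97 ± 0.064 (SE, edgeR adjusted p = 2.25e-12) against Ctrl_RT. Within the MetR diet, cold went with a fall of -0.77 ± 0.062 (SE, edgeR adjusted p = 3.7e-10). The fall was smaller on the MetR diet: the interaction was 0.50 ± 0.091 (SE, edgeR adjusted p = 0.00665), and MetR_CE exceeded Ctrl_CE by 0.30 ± 0.065 (SE, edgeR adjusted p = 0.00572), both under 1.5-fold. The interaction passed at an adjusted p where 0.903% of all iBAT genes did. All 3 Suox calls held in each of 26 fits that left out 1 iBAT library. The brown adipocyte markers, whose sums were given above, separated the same cold and room-temperature iBAT libraries in the opposite direction. Slc6a6 went in the same direction as these markers, but its Ctrl_CE libraries (from 337 CPM) overlapped with MetR_RT (up to 361 CPM). The part of the markers in the Suox or Slc6a6 result was not tested.

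Suox was also lower in cold iWAT, where it ran from 28.9 to 37.2 (median 32.3) CPM in Ctrl_RT and 20.4 to 27 (median 23.2) in Ctrl_CE. These groups did not overlap, and the difference of -0.44 ± 0.10 (SE, edgeR adjusted p = 0.00102) was under 1.5-fold. Liver went the other way by a small amount, with 136 ± 9.80 CPM in Ctrl_CE (mean ± SD, n = 7) against 112 ± 18.8 in Ctrl_RT (0.27 ± 0.081, edgeR adjusted p = 0.0109). In eWAT, the Ctrl_RT libraries held 30.9, 28.1, 37 and 26.7 CPM, and MetR_RT replicate 2 stood apart at 50.2 CPM. The latter also had the highest sum of epididymis markers among the eWAT libraries kept, 995.2 CPM, and the library with the highest sum of all, the left-out Ctrl_RT replicate 2 (6423 CPM), held 188 CPM of Suox. No eWAT difference of Suox was called with the libraries kept (-0.39 ± 0.18, edgeR adjusted p = 0.246 in Ctrl_CE), whereas Ctrl_CE (-1.18) and MetR_CE (-1.12) were called as lower with the left-out libraries put back.

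Tst, the sulfurtransferase also known as rhodanese, fell in iBAT under each treatment. It ran from 26.2 to 43.6 (median 32.3) CPM in Ctrl_RT, 13.9 to 21.9 (median 17) in Ctrl_CE, 19 to 26.7 (median 21.3) in MetR_RT and 12.4 to 17.7 (median 15) in MetR_CE. The cold groups lay below Ctrl_RT without overlap, and 6 of 7 MetR_RT libraries lay below it as well. The changes were -0.97 ± 0.12 (SE, edgeR adjusted p = 3.2e-07) in Ctrl_CE, -0.59 ± 0.12 (SE, edgeR adjusted p = 0.00201) in MetR_RT and -1.17 ± 0.12 (SE, edgeR adjusted p = 7.28e-09) in MetR_CE. Of these, the MetR_RT fall sat at the fold threshold: it was lost without Ctrl_RT replicate 1 (-0.51), Ctrl_RT replicate 6 (-0.53), MetR_RT replicate 3 (-0.58), MetR_RT replicate 4 (-0.56), MetR_RT replicate 5 (-0.56) or MetR_RT replicate 7 (-0.58), and with DESeq2. RLE size factors, the filterByExpr filter, the replicate number as a block and glmTreat (a test against the 1.5-fold line) ended it as well. It held in 5 of 11 alternatives other than leaving out a library. The interaction of 0.39 ± 0.17 (edgeR adjusted p = 0.324) did not pass.

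White fat Tst was lowest in MetR_CE. In iWAT it ran from 50.9 to 98.8 (median 59.1) CPM in Ctrl_RT, 31.2 to 69.7 (median 48.2) in Ctrl_CE, 31.1 to 84.2 (median 49.2) in MetR_RT and 21.9 to 45.4 (median 30.1) in MetR_CE. No MetR_CE library reached Ctrl_RT, and the fall was -1.10 ± 0.22 (SE, edgeR adjusted p = 2.44e-04), with a further called difference of -0.79 ± 0.22 (SE, edgeR adjusted p = 0.0335) from MetR_RT. The latter was lost without MetR_RT replicate 2 (-0.69, adjusted p = 0.0871), MetR_RT replicate 5 (-0.81, adjusted p = 0.0525), MetR_RT replicate 6 (-0.64, adjusted p = 0.0712), MetR_CE replicate 3 (-0.78, adjusted p = 0.0585), MetR_CE replicate 4 (-0.71, adjusted p = 0.0986), MetR_CE replicate 5 (-0.70, adjusted p = 0.0868) or MetR_CE replicate 6 (-0.77, adjusted p = 0.0621). The median sum of macrophage markers was also lowest in MetR_CE iWAT (88.8 CPM, against 417 in Ctrl_RT), and its part in the Tst result was not tested. Neither treatment alone passed the test in iWAT (-0.41 ± 0.21 in Ctrl_CE, edgeR adjusted p = 0.142; -0.31 ± 0.21 in MetR_RT, edgeR adjusted p = 0.318), and the interaction was -0.38 ± 0.30 (edgeR adjusted p = 0.548). In eWAT the Ctrl_RT libraries held 42.3, 40.1, 45.7 and 36.6 CPM and the MetR_CE libraries ran from 7.06 to 29.5 (median 13.8) CPM. These groups did not overlap and the difference was large, -1.35 ± 0.37 (SE, edgeR adjusted p = 0.0524), but missed the threshold; DESeq2 put its adjusted p at 0.00868. Liver Tst differed by less: MetR_CE was lower than Ctrl_RT, with -0.49 ± 0.058 (SE, edgeR adjusted p = 8.97e-08), 0.711 of its level and without overlap.

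Mpst, the neighbour of Tst on chromosome 15 and the source of sulfide from mercaptopyruvate, fell in liver and eWAT where diet and cold were combined. Liver Mpst ran from 127 to 160.2 (median 132) CPM in Ctrl_RT, 81.7 to 112 (median 99.99) in Ctrl_CE, 97.2 to 127 (median 113) in MetR_RT and 73.8 to 100.1 (median 85) in MetR_CE. Each treated group lay below Ctrl_RT without overlap, and MetR_CE was lowest. In the same livers the hepatocyte markers summed to 42001 to 50207 CPM in MetR_CE, below the 51533 to 81834 CPM of Ctrl_RT without overlap, and the endothelial markers to 198 to 231 CPM, above the 84.9 to 126 CPM of Ctrl_RT. Ctrl_CE overlapped with Ctrl_RT for the hepatocyte markers (50993 to 72192 CPM) and not for the endothelial ones (148 to 245.1 CPM). The part of these shifts in the Mpst result was not tested. The differences were -0.49 ± 0.073 (SE, edgeR adjusted p = 7.89e-06) in Ctrl_CE and -0.29 ± 0.073 (SE, edgeR adjusted p = 0.00439) in MetR_RT, both under 1.5-fold, and the called fall in MetR_CE was -0.67 ± 0.073 (SE, edgeR adjusted p = 2.85e-08). The interaction was near 0 (0.11 ± 0.10, 95% interval -0.09 to 0.31), that is, the combined difference was about the sum of the single ones.

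In eWAT, Mpst measured 54.3, 47.5, 45.8 and 52.4 CPM in the 4 Ctrl_RT libraries, 39.6 to 44.9 (median 41.1) in Ctrl_CE, 34.8 to 46.6 (median 41.4) in MetR_RT and 28.5 to 36.4 (median 32.8) in MetR_CE. MetR_CE lay below both Ctrl groups without overlap. Its fall of -0.59 ± 0.074 (SE, edgeR adjusted p = 1.14e-04) against Ctrl_RT barely passed the fold threshold and was lost without Ctrl_RT replicate 1 (-0.55), Ctrl_RT replicate 7 (-0.58), Ctrl_CE replicate 7 (-0.58) or MetR_CE replicate 4 (-0.56) and with the left-out libraries put back (-0.32). DESeq2 shrunken by apeglm, no filter on low counts, the replicate number as a block and glmTreat ended it as well. The call held in 4 of 9 alternatives other than leaving out a library. iBAT Mpst was lower in MetR_CE, with -0.45 ± 0.067 (SE, edgeR adjusted p = 3.71e-06), under 1.5-fold, and the iWAT differences were smaller still (-0.23 ± 0.088, edgeR adjusted p = 0.0371 in MetR_CE).

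Ethe1, the mitochondrial persulfide dioxygenase, fell in MetR_CE liver. It ran from 42.6 to 72.3 (median 56.3) CPM in Ctrl_RT, 30.8 to 55.8 (median 51.1) in Ctrl_CE, 40.7 to 74.2 (median 63.6) in MetR_RT and 31.6 to 39.8 (median 37.8) in MetR_CE. Every MetR_CE library lay below every library of either room-temperature group. The hepatocyte marker sums of MetR_CE (42001 to 50207 CPM) were also below those of Ctrl_RT and overlapped with the 47686 to 72327 CPM of MetR_RT, and the endothelial sums of MetR_CE (198 to 231 CPM) were above both room-temperature groups (84.9 to 157 CPM). Their part in the Ethe1 result was not tested. Against MetR_RT the fall was -0.77 ± 0.13 (SE, edgeR adjusted p = 5.78e-05) and held in all 28 fits that left out 1 library; against Ctrl_RT it was -0.59 ± 0.13 (SE, edgeR adjusted p = 5.5e-04), at the fold threshold, and was lost in 20 of 28 (all but the fits without Ctrl_RT replicates 5, 6 and 7, MetR_CE replicates 3, 4, 6 and 7, MetR_RT replicate 2), with values from -0.58 to -0.50. The interaction of -0.54 ± 0.18 did not pass (edgeR adjusted p = 0.112). In iBAT, Ethe1 was lower in MetR_CE, with -0.37 ± 0.083 (SE, edgeR adjusted p = 8.03e-04), under 1.5-fold, and in white fat, at 3.06 to 9.01 CPM, no difference passed the test.

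**Figure D4:**
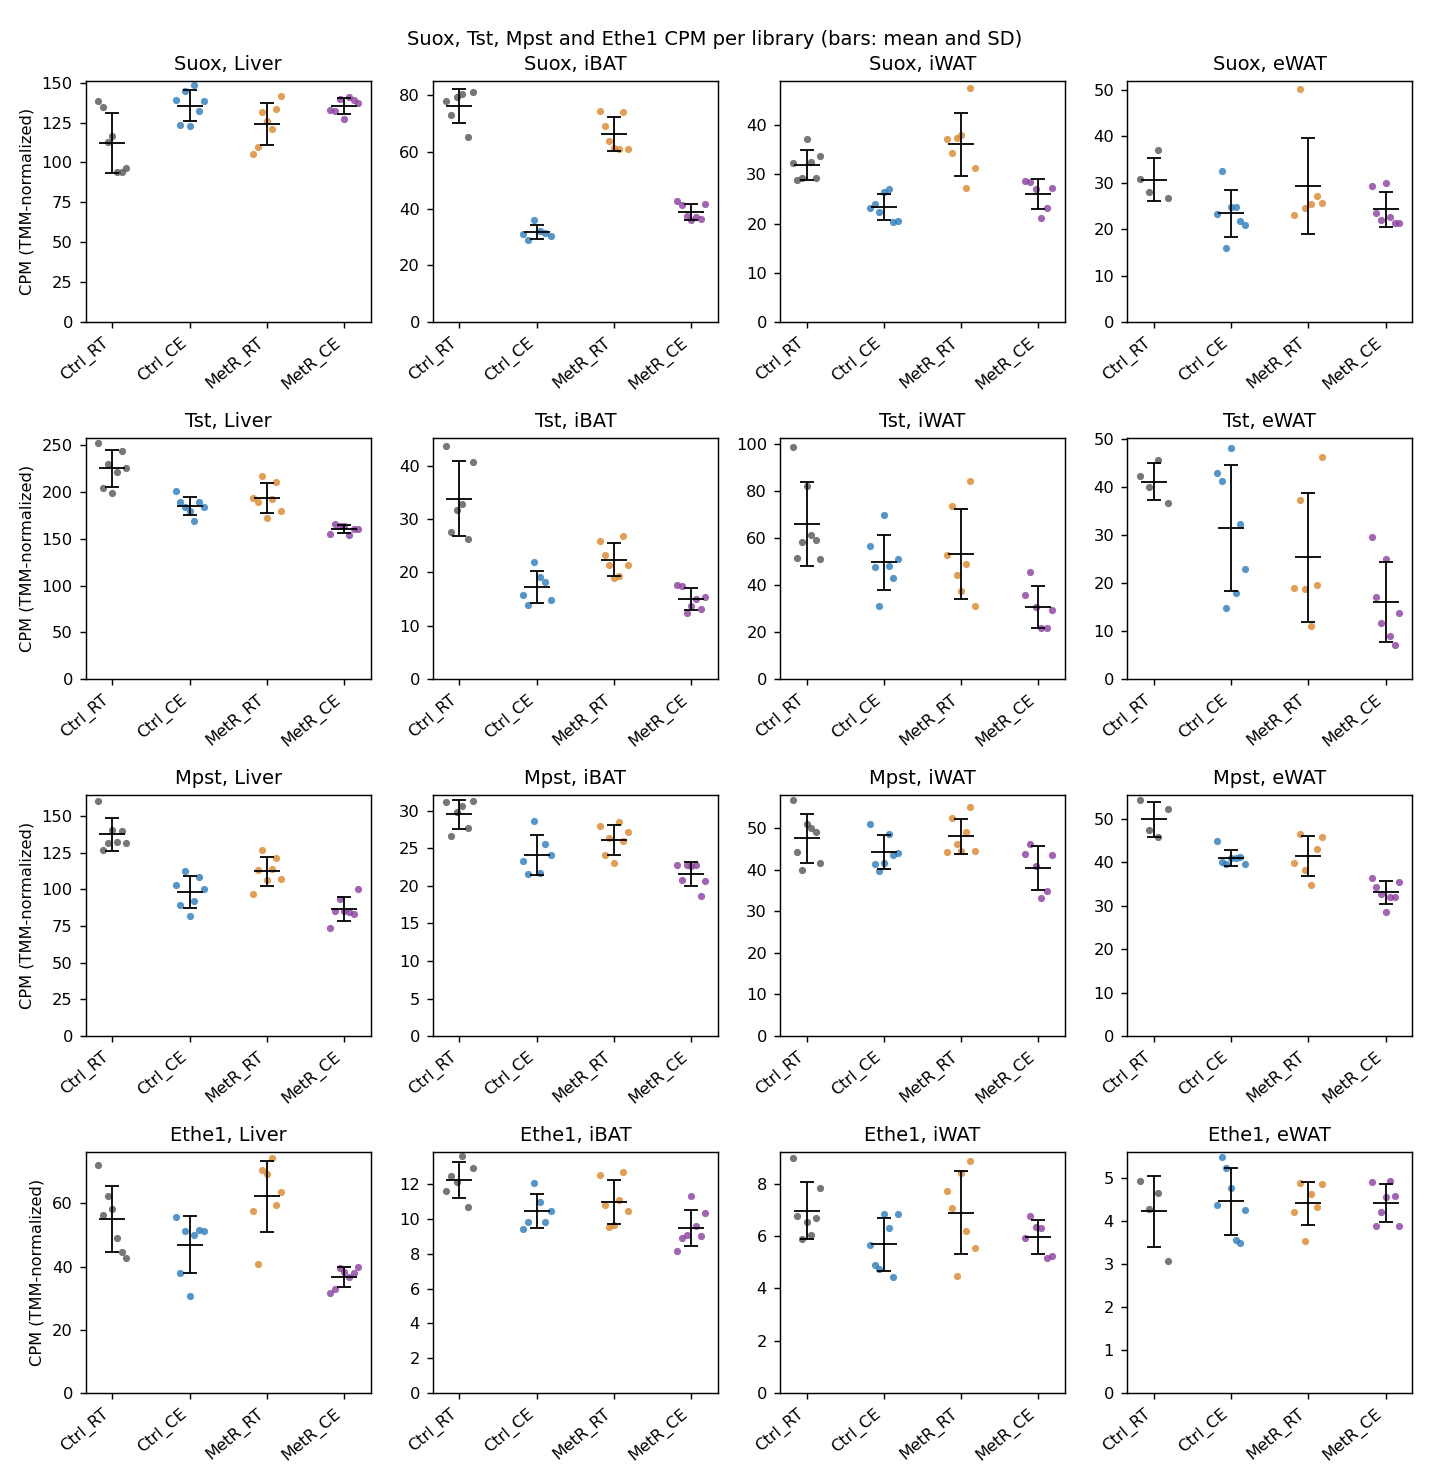
CPM of Suox, Tst, Mpst and Ethe1 in every library by tissue and group (points, libraries; lines, mean and SD; n = 6 or 7 per group, 4 in eWAT Ctrl_RT). In iBAT the cold groups of Suox lie between 29 and 42.6 CPM, below all room-temperature libraries, and Ethe1 is lower in liver MetR_CE (31.6 to 39.8 CPM) than in both room-temperature groups.

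Whether a response differed between tissues was tested in 1 fit over all libraries, for 3 pairs of tissues and for Ctrl_CE and MetR_RT against Ctrl_RT. Of 48 such tests, 7 had an adjusted p under 0.05, none of them for iWAT against eWAT (6.86% of all genes in Ctrl_CE and 5.27% in MetR_RT) or for iBAT against iWAT in MetR_RT (6.09%); of these 24 tests, 3 had an unadjusted p under 0.05 and limma called 0. The cold response was lower in iBAT than in iWAT for Cdo1, with a difference (iBAT minus iWAT, log2) of -0.84 ± 0.19 (SE, edgeR adjusted p = 7.02e-04), and for Suox, with -0.81 ± 0.16 (SE, edgeR adjusted p = 9.09e-05), where 12.9% of all genes passed. The Slc6a6 value for the same depots was -0.016 ± 0.21 (SE, edgeR adjusted p = 1). Between liver and iWAT (19% of all genes), the cold response was higher in liver for Suox, with 0.76 ± 0.15 (SE, edgeR adjusted p = 6.26e-05), and lower for Mpst, with -0.34 ± 0.11 (SE, edgeR adjusted p = 0.0153) and for Ado, with -0.28 ± 0.092 (SE, edgeR adjusted p = 0.0174). Csad responded more to MetR in liver than in iWAT, by 1.55 ± 0.31 (SE, edgeR adjusted p = 1.23e-04) where 12.6% of all genes passed. For its cold response the difference was 1.07 ± 0.31 (SE, edgeR adjusted p = 0.00673); without liver Ctrl_CE replicate 1 it was 0.32 (edgeR adjusted p = 0.408), and the MetR difference was then 1.55 (edgeR adjusted p = 1.07e-07). The same mice gave the tissues, which this fit took no account of; a limma fit with the mouse as a block also called 7, without the cold response of Csad (0.78, limma adjusted p = 0.0564) among them.

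Around the 8 genes, 33 further genes of sulfur metabolism were listed: 12 of sulfide, sulfite and sulfate, 8 of taurine and cysteine sulfinate, and 13 of cysteine supply and glutathione. In liver, 32 were tested, and 5 changed in Ctrl_CE, all of them higher, while 7 rose and 1 fell in MetR_RT, and 7 rose and 1 fell in MetR_CE against Ctrl_RT. The leading ones were Slc3a2, a subunit of the cystine transporter, with 1.49 ± 0.13 (SE, edgeR adjusted p = 7.57e-10) in MetR_RT, Got1, an aminotransferase that competes with Csad for cysteine sulfinate, with 1.42 ± 0.16 (SE, edgeR adjusted p = 3.39e-08) in MetR_CE, and Mat1a, which makes S-adenosylmethionine, with 1.37 ± 0.16 (SE, edgeR adjusted p = 1.09e-07) in MetR_CE. For iBAT, Ctrl_CE had 4 risen and 8 fallen genes, MetR_RT had 2 and 1, and MetR_CE had 5 and 7. Got1 rose there from 15.5 to 37.1 (median 29.4) CPM in Ctrl_RT to 135 to 151 (median 141) in Ctrl_CE (2.32 ± 0.13, edgeR adjusted p = 1.28e-13), and Slc3a2 by 1.39 ± 0.11 (SE, edgeR adjusted p = 2.98e-11). Sqor, the sulfide quinone oxidoreductase upstream of Ethe1, Tst and Suox, fell in iBAT from 51.1 to 65.7 (median 58.7) CPM in Ctrl_RT to 19.4 to 24.4 (median 21.3) in Ctrl_CE and 23 to 32 (median 28.3) in MetR_CE (-1.43 ± 0.075, edgeR adjusted p = 3.62e-14, and -1.06 ± 0.071, edgeR adjusted p = 3.07e-12), with a MetR_RT difference of -0.11 ± 0.07 (edgeR adjusted p = 0.367).

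In iWAT, of 33 listed genes tested, 6 rose and 2 fell in Ctrl_CE, 2 rose and 1 fell in MetR_RT, and 8 rose and 1 fell in MetR_CE. Got1 led again with 2.42 ± 0.35 (SE, edgeR adjusted p = 3.9e-06) in MetR_CE, followed by Slc6a13, another transporter that carries taurine, with 1.76 ± 0.46 (SE, edgeR adjusted p = 0.00350), and Chac1, which breaks down glutathione, with 1.66 ± 0.41 (SE, edgeR adjusted p = 0.00211). eWAT had 1 gene risen in Ctrl_CE, Slc25a10, a mitochondrial carrier of dicarboxylates, with 1.13 ± 0.30 (SE, edgeR adjusted p = 0.0298), and 1 in MetR_CE, Chac1, with 1.11 ± 0.28 (SE, edgeR adjusted p = 0.0306). The shares of all genes called in these comparisons were given above.

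The genes whose 12 fold changes against Ctrl_RT (3 groups, 4 tissues) lay nearest to those of a member were found among 10911 genes by the root mean square difference on the log2 scale. For Suox, Gm49463 (0.148) and Six5 (0.154) were among the nearest. Csad lay nearest to Aox1 (0.213) and Fmo1 (0.285), an enzyme that oxidises hypotaurine to taurine. Aox1 differed by 1.45 in liver MetR_RT, -0.86 in iBAT Ctrl_CE and -0.61 in eWAT Ctrl_CE. Slc6a6 had Pvr (0.163), Rragc (0.170) and Kctd9 (0.176), Mpst had Pigyl (0.123), Idnk (0.130) and Fxyd1 (0.130), Ethe1 had Zfp414 (0.0985), Rit1 (0.123) and Washc1 (0.127), and Tst had C3 (0.236), Gm13889 (0.273) and Phlda1 (0.288). The root mean square of a member's own changes was 0.257 for Ethe1, 0.372 for Mpst, 0.519 for Slc6a6 and 0.527 for Suox. It was 0.725 for Csad and 0.761 for Tst. A gene with no change at all would lie that far from the member, so distances cannot be compared between members. The 12 values share the Ctrl_RT libraries of each tissue, so likeness is a description over these groups.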

How the data were processed

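Total RNA from liver, iBAT, iWAT and eWAT of the same mice was poly(A)-selected, prepared with a NEBNext Ultra II RNA kit and sequenced from both ends on an Illumina NovaSeq. The authors deposited raw counts per gene, which name Ensembl genes; per the submitters' processing notes, reads were aligned to mm10 with STAR 2.7.9a and counted with featureCounts 2.0.3 or Salmon 1.9.0, and the names of the deposited tables point to Salmon, whose counts are estimates, here whole numbers; a statement of the counting step itself is not given in the sources used here. Groups were taken from sample titles, also for the 3 iBAT libraries whose treatment tag names another group. The 5 libraries that the study left out were left out here; which they were was taken from an earlier analysis that compared them with the study's source data, since the labels do not mark them. Each replicate is a separate mouse. Total counts per library are given above, and the precision of low genes is limited by these depths.

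Genes with at least 10 counts in total per tissue were kept, scaled by TMM, and fitted with edgeR 4.0.16 (R 4.3.3, quasi-likelihood F-test) as 4 group means per tissue, with Benjamini-Hochberg adjustment over all genes. CPM values use the TMM-scaled library sizes. Levels between tissues were tested in Ctrl_RT libraries with tissue and mouse as terms and joint scaling, and the difference of responses in a fit of the groups of all tissues (adjusted p under 0.05, no fold threshold). DESeq2 1.42.0 (plain, or shrunken by apeglm 1.24.0), limma 3.58.1 (voom), RLE size factors, other filters, glmTreat (a test against the 1.5-fold line), all libraries, only the compared groups, groups by tag, the replicate number as a block and leaving out each library were the alternatives. The fits were checked on simulated counts. Gene positions came from GENCODE M21 (GRCm38) by gene ID without its version: 51948 of 56884 IDs matched, of which 35 had the same version. Levels per kilobase used the union of exons. All 8 genes were described; of the neighbouring sulfur genes, up to 3 per tissue were named, those with the largest called change against Ctrl_RT and a mean of at least 1 CPM, and like genes were the 3 with the smallest root mean square difference for each member with a call against Ctrl_RT (1 of them is not reported here). The 8 genes and the lists were chosen with earlier results of these data known.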

Additional observations from a re-analysis of the deposited data

Results flagged for a closer look

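Single libraries stood apart from the rest of their group in 7 of 128 groups of 4 to 7 libraries, by Dixon's test of the gap to the nearest value; chance gives about 1 in 20. Liver Csad was 735 CPM in Ctrl_CE replicate 1. Slc6a6 stood out in MetR_RT replicate 6 in both iBAT (361 CPM) and iWAT (276.5 CPM), 2 depots of the same mouse, and in iWAT Ctrl_CE replicate 4 (399 CPM). Mpst was high in liver Ctrl_RT replicate 1 (160.2 CPM) and in eWAT Ctrl_CE replicate 1 (44.9 CPM), and Suox in eWAT MetR_RT replicate 2 (50.2 CPM).

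Responses that differed between tissues by the test of the difference itself were, for cold, those of Cdo1 (iBAT minus iWAT, -0.84 on the log2 scale), Suox (iBAT minus iWAT, -0.81; liver minus iWAT, 0.76), Csad (liver minus iWAT, 1.07), Mpst (liver minus iWAT, -0.34) and Ado (liver minus iWAT, -0.28), and for the MetR diet, that of Csad (liver minus iWAT, 1.55). The cold difference of Csad was not called without liver Ctrl_CE replicate 1, or by limma, as given above. Between the diets, the cold response differed for Cdo1 in iWAT (-0.69) and for Suox in iBAT (0.50). The Cdo1 call in iWAT was lost in 16 of 27 fits that each left out 1 library. For Cdo1 in eWAT the interaction was -0.69 ± 0.27 and did not pass (edgeR adjusted p = 0.177).

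Among the libraries left out, eWAT Ctrl_RT replicate 2 held Suox at 188 CPM, Ado at 38.9 CPM and Ethe1 at 7.88 CPM, above the range of all eWAT libraries kept.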

How the results depend on the processing

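Of 34 gene comparisons recomputed under the alternatives (those called as reported or under some alternative), 0 changed direction. As these passed the call rule in at least 1 fit and the fits share most libraries, a reversal was unlikely from the start. Comparisons never called were not counted. Leaving out each library in turn (chosen after seeing the data in liver, iBAT and iWAT, as was the fit without liver Ctrl_CE replicate 1) gave, for the 8 genes, 4 to 6 liver calls (5 with all libraries), 7 to 10 iBAT calls (9), 4 to 8 iWAT calls (6) and 0 to 4 eWAT calls (2); for the neighbouring genes the ranges were 19 to 22 (21), 22 to 27 (27), 17 to 26 (20) and 0 to 3 (2). Of the 22 calls, 13 held in all these fits and 8 in every other alternative, or 15 with glmTreat set aside. With no fold threshold, liver had 19 calls of the 8 genes, iBAT 25, iWAT 15 and eWAT 6, out of 48 tests each. The shares of all genes passing ran from 1.76% to 30.3% over the liver comparisons and from 0.903% to 33.4% in iBAT. In iWAT they ran from 2.95% to 37% and in eWAT from 0.148% to 11.5%. The neighbours, 32 or 33 per comparison against Ctrl_RT, had 52, 42, 39 and 5 calls. Shares there, in the same order, were 18.8% to 30.3%, 6.8% to 33.4%, 22.4% to 37% and 0.148% to 5.27%. With glmTreat the counts were 1, 5, 2 and 0, and 10, 13, 9 and 0. No share of all genes is given for glmTreat or the alternatives below. In eWAT, DESeq2 without shrinkage made 5 calls of the 8 genes, filterByExpr 4 and no filter 1, and for the neighbours DESeq2 made 5, all libraries 11 and only the compared groups 1. The level differences between tissues numbered 26 to 38 over their alternatives (30 as reported), and the response differences 7 to 9 (7); with all libraries the response of Mpst missed the threshold (edgeR adjusted p = 0.0899). RLE moved the median of all genes by at most 0.032.

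Replicate numbers name different mice within a tissue and do not pair them: same-numbered libraries had median correlations of -0.0054 (liver), -0.0025 (iBAT), 0.052 (iWAT) and 0.084 (eWAT), and 2 of 28, 3 of 26, 4 of 27 and 2 of 24 libraries were nearest to their own number. With the replicate block, the 8 genes had 4 liver, 8 iBAT, 7 iWAT and 2 eWAT calls, and the neighbours 6 eWAT calls. Depth limits Ethe1 in white fat most.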
